A study of Rattus norvegicus with 2 samples.

Results

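Thick and thin filaments are the sliding parts of the cardiac sarcomere. In the thick filament, myosin heavy chains carry the motor heads, light chains stiffen and tune their lever arms, myosin-binding protein C holds heads in check, and titin runs alongside as scaffold and spring. In the thin filament, tropomyosin lies along actin and the troponin complex (T anchors it, I inhibits, C binds calcium) moves it when calcium rises. Adult rodent ventricle relies mainly on α-myosin (Myh6), and pressure load is known for bringing back β-myosin (Myh7), the slower motor of the fetal heart.

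The genes described are 6 of the thick filament (Ttn, Myh6, Myh7, Myl2, Myl3, Mybpc3) and 4 of the thin filament (Tnnt2, Tnni3, Tnnc1, Tpm1). Their peaks were taken from the deposited peak list by the gene name that the authors' annotation gives each peak, which goes by the closest transcription start site (TSS). This gave 19 of the list's 28706 peaks, at 7 of the 10 genes. The peaks come from 1 chromatin immunoprecipitation (ChIP) library of myocardium from male Wistar rats whose abdominal aorta had been ligated around a wire 0.7 mm thick above the renal arteries, which loads the heart with pressure. An input library of the same model carries the same number, 3, and has no values used here. The antibody is labelled by vendor and catalogue number, and its target was taken from the series title to be lactylated lysine 18 of histone H3 (H3K18la), a mark made from lactate and found at active promoters and enhancers. The labels used here give neither the rats' age, nor how many animals gave the chromatin, nor whether any had the vagal stimulation of the title. There is no unoperated group and no replicate here, so every value is a description of 1 library, without replicate error or test.

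Of the genes listed as markers, 9 of 12 cardiomyocyte genes had a peak at any distance, against 26.5% of all 23154 protein-coding genes. None of the 12 is among the 10 filament genes, and no peak was named for Tbx5, Ryr2 or Tcap. Of the endothelial genes, 4 of 6 had a peak (all but Pecam1 and Emcn). The counts were 2 of 6 smooth muscle and pericyte genes, 1 of 6 fibroblast genes (Tcf21 alone), 1 of 6 immune genes (Csf1r alone) and 0 of 6 skeletal muscle genes (95% exact binomial interval 0 to 45.9%). The intervals of these last 4 lists all hold the share over all protein-coding genes. So does that of the endothelial list (22.3 to 95.7%), but not that of the cardiomyocyte list (42.8 to 94.5%). A peak centred within 1000 bp of the TSS stood at 5 of the 12 cardiomyocyte genes (15.2 to 72.3%), against 16.7% of protein-coding genes. That interval holds the share over all genes. In bulk myocardium, fewer cells of a type and a weaker mark per cell cannot be told apart. Library depth is unknown, so a gene without a peak is one without a call at this depth.

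At least 1 peak of any class stood at 7 of the 10 filament genes (70%, 95% exact binomial interval 34.8 to 93.3%), against the same 26.5% of protein-coding genes. A peak centred within 1000 bp of the TSS stood at 6 of 10 genes (60%, 26.2 to 87.8%), against 16.7% of protein-coding genes. A promoter-TSS peak, a class the authors' annotation gives to peaks near a start site, stood at 4 of 10 (40%, 12.2 to 73.8%), against 9.68%. At the filament genes the peaks of this class were centred 251 to 801 bp upstream of the TSS, and none spanned it. These counts depended on the strength asked of a peak. With a −log10 q of at least 5, any peak stood at 3 of 10 genes (against 14.1% of protein-coding genes), a peak within 1000 bp at 1 (against 7.89%) and a promoter-TSS peak at 0 (against 4.15%). With a fold enrichment of at least 4 the counts were 6 (against 19.3%), 4 (against 10.1%) and 2 (against 5.28%). These intervals cover counting error only, and genes of 1 library are not replicates. The shares over all protein-coding genes rest on matching names to current symbols. Of the 8094 gene names in the annotation, 6224 had such a match, as did all 10 filament genes, so these shares may be too low. With older symbols counted, 27.1% of protein-coding genes had any peak. The thick filament had peaks at 4 of 6 genes (13 peaks) and the thin filament at 3 of 4 (6 peaks). Myh7, Myl3 and Tnnt2 had 4 peaks each, a number reached by 6.68% of protein-coding genes and by 25.2% of those with any peak. Mybpc3 had 3 peaks, Myl2 had 2, and Tnni3 and Tpm1 had 1 each. No peak carried the names of Ttn, Myh6 or Tnnc1.

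By class, 4 of the 19 filament peaks were promoter-TSS (21.1%, against 9.78% of all peaks), 6 intron (31.6%, against 43.8%), 2 exon (10.5%, against 3.54%), 2 at transcription termination sites (TTS; 10.5%, against 1.67%) and 5 intergenic (26.3%, against 41.1%). Peaks within 1000 bp of the TSS made up 8 of 19 (42.1%), against 19.4% of all peaks. Of these 8, 4 lay upstream and 4 downstream by their centres, while the list as a whole held 2240 upstream and 3328 downstream. Position differed by gene. Peaks named for Myh7 and Myl2 lay upstream only, those named for Mybpc3, Tnni3 and Tpm1 downstream only, and those of Myl3 and Tnnt2 on both sides. A further 2 peaks, under other names and downstream of the Myh7 TSS, had their class given on the Myh7 transcript. The TSS could be placed for 16 of the 19 peaks from the annotated distances of peaks that share a transcript, and 1 of the 16, at Tnnt2, spanned it.

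**Figure D1:**
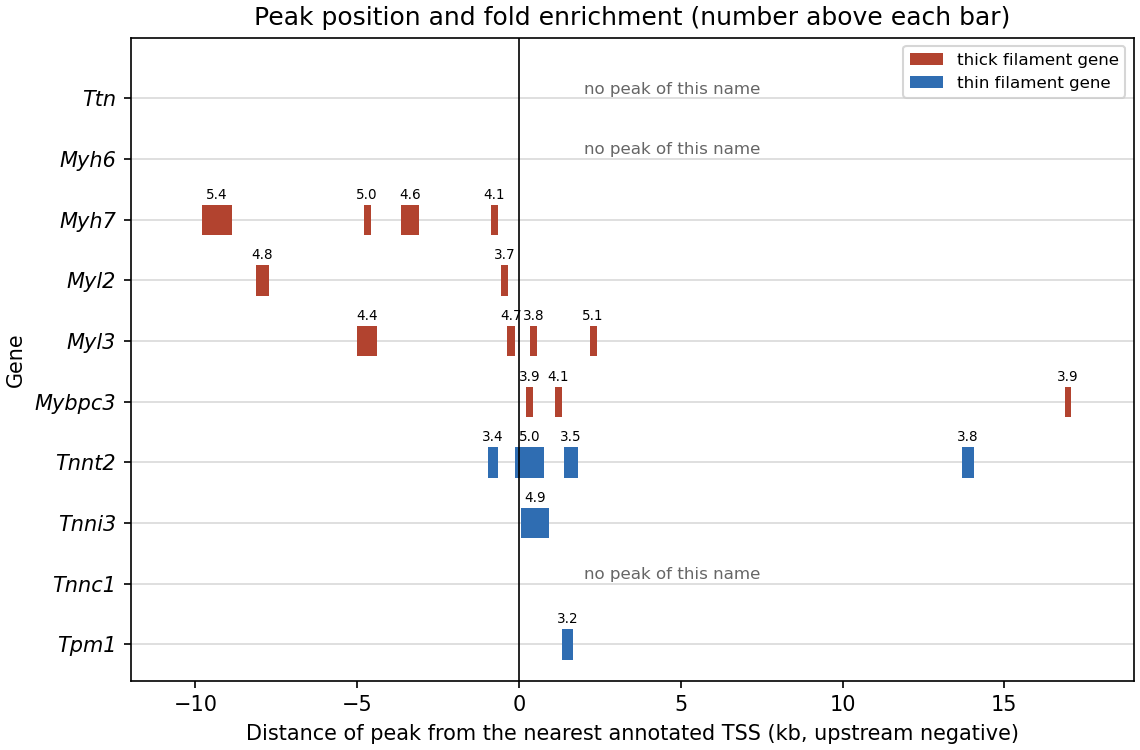
Position of the 19 peaks of thick (red) and thin (blue) filament genes, in kb from the nearest annotated TSS of the gene (upstream negative), with bar length as peak width and fold enrichment printed above each bar. Peaks named Myh7 and Myl2 lie upstream of the TSS, and Mybpc3, Tnni3 and Tpm1 peaks downstream. The rightmost Tnnt2 peak is placed from a second annotated start.

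In strength the filament peaks were like the list at large. Fold enrichment, the deposited ratio of a peak's summit to the caller's local background, had a median of 4.11 over the 19 peaks (range 3.18 to 5.38), against 4.13 over all peaks. Of the 19, 9 lay above that median of all peaks. At least 4-fold enrichment was met by 11 of the 19 (57.9%), against 55.5% of all peaks. None reached 6-fold, a level met by 1811 peaks of the list (6.31%). The median over the 13 thick filament peaks was 4.36 and over the 6 thin filament peaks 3.67. Taking each gene's strongest peak, the median over the 7 genes was 4.94, against 4.63 over the 6132 protein-coding genes with a peak (quartiles 3.94 and 5.49). The deposited −log10 q had a median of 3.98 for the filament peaks, against 3.89 for all peaks, and reached 5 in 4 of 19 (21.1%), against 32.0% of all peaks. Filament peaks were narrow, with a median width of 299 bp, against 375 bp, and 9 of 19 were below the lower quartile of all peaks, 260 bp. Fold values in this list come in steps, with 1838 distinct values over all peaks. Each of the 19 fold values was shared by 8 to 426 peaks of the list, so small differences between peaks are differences of a few steps.

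**Figure D2:**
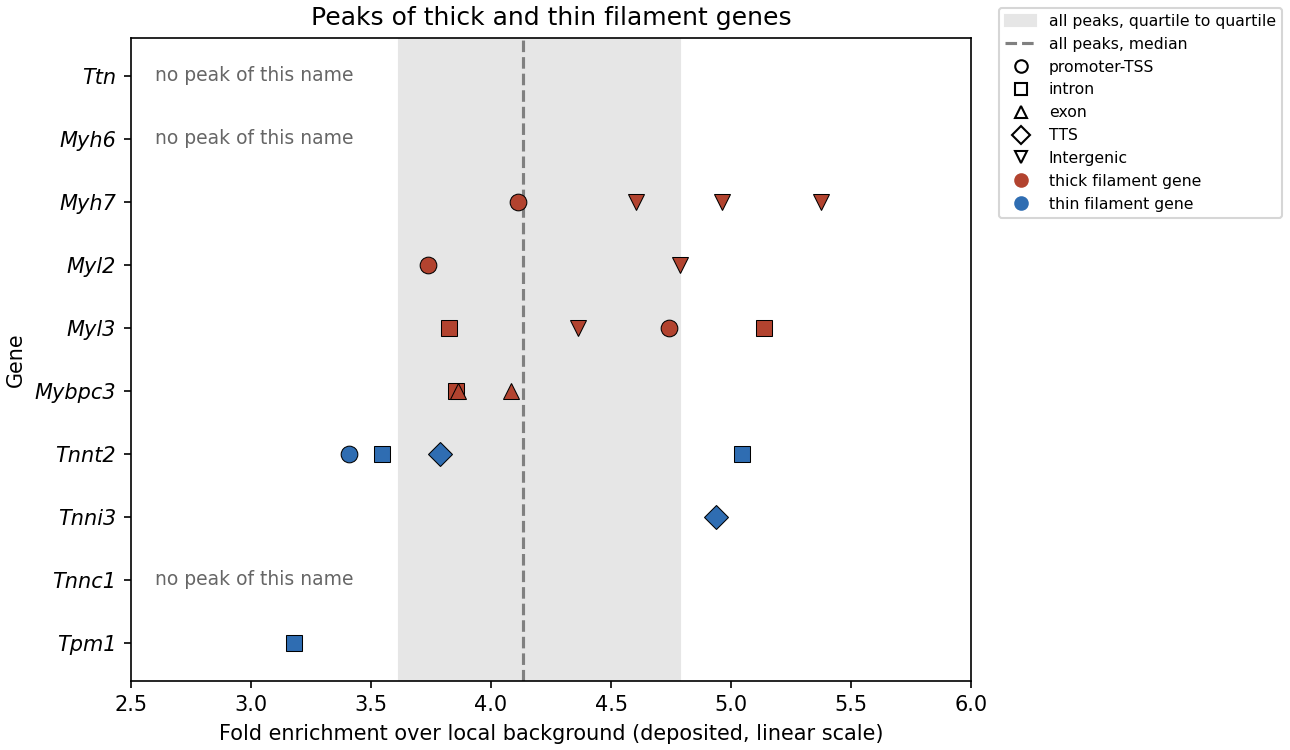
Deposited fold enrichment of each filament peak (linear axis), by gene, with marker shape giving the peak's class and colour the filament. The grey band spans the quartiles of all 28706 peaks (3.62 to 4.79) and the dashed line is their median of 4.13. No filament peak reaches 6.

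The start regions of the filament genes with a peak close to the TSS are shown as the 250 bases before the RefSeq start in build GRCr8, next to that of Myh6, which had no peak of its name. The build differs from the rn6 build of the peaks, so the windows show the sequence before the RefSeq starts and not the sequence under the peaks. Whether each start is the one used in the heart was not tested. Windows were matched by symbol for 8 of the 10 genes, 9 windows in all because Tnnt2 has 2 listed starts, and none is shown for Myl2 or Tnnc1. Capitals mark, on either strand, TATAAA, the M-CAT motif CATTCC read by TEAD factors, the GATA motif AGATAA, and the MEF2 and CArG motifs, the last of which binds serum response factor.
Myh7: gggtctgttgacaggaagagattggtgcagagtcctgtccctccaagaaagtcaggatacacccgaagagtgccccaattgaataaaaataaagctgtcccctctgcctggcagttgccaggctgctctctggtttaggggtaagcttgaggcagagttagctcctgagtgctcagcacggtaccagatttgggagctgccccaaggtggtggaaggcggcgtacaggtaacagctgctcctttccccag
Myh6: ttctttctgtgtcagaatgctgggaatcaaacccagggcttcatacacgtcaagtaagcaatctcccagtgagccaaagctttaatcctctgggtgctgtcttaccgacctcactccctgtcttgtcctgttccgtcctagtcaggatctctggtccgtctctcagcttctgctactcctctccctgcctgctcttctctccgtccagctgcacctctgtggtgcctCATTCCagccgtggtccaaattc
Myl3: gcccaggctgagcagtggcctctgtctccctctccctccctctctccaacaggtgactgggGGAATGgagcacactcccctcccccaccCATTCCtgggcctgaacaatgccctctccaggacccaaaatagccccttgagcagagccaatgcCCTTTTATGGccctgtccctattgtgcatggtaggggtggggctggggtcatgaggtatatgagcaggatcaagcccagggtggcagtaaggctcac
Mybpc3: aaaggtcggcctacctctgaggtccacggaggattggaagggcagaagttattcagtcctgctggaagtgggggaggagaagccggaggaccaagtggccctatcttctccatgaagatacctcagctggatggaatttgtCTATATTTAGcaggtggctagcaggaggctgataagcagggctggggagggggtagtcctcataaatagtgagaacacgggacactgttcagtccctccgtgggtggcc
Tnnt2: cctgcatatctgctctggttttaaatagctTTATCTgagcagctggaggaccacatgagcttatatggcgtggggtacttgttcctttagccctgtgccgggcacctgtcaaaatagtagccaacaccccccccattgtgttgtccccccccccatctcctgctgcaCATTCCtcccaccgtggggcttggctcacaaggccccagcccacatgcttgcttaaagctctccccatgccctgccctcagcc
Tnni3: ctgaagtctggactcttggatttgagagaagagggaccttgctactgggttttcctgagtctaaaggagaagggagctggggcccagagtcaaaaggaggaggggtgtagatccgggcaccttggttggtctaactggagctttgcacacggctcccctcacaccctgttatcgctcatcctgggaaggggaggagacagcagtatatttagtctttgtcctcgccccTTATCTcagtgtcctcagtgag
In GRCr8 these windows are chr15:32438195-32438444 (minus strand) for Myh7, chr15:32411698-32411947 (minus) for Myh6, chr8:119616844-119617093 (plus) for Myl3, chr3:97550811-97551060 (plus) for Mybpc3, chr13:49818873-49819122 (plus) for the first listed start of Tnnt2 and chr1:78342321-78342570 (plus) for Tnni3.

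CATTCC stood in 4 of the 9 windows (those of Myh6, Myl3 and Tpm1 and the first of Tnnt2), against 12.1% of all 33469 windows of this length. Myl3 held it once on each strand. The MEF2 motif stood in the windows of Mybpc3 and Ttn (2 of 9, against 2.96%), and the CArG motif in that of Myl3 (1 of 9, against 501 of the 33469 windows). AGATAA stood in the first of Tnnt2 and that of Tnni3 (2 of 9, against 10.3%), both times on the opposite strand. TATAAA, which can overlap a MEF2 motif, was in 0 of the 9, against 12.9% of all windows. The E-box CANNTG, not capitalised, was in 8 of 9, against 65.5%. Of the searched motifs the Myh7 window held the E-box alone. This window ends in ctcctttccccag, letters like those at the end of an intron, so it may not hold the Myh7 promoter. In this table the first ATG lay at base 9 after the RefSeq start of Myh7, at base 27 for Myh6 and at base 31 for Mybpc3, while the 50 bases after the starts of Myl3, Tnnt2 and Tnni3 held none. A motif match describes letters, not binding, and none of these matches was set against the fold of a peak.

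Myh7, the β-myosin heavy chain, had the strongest filament peak. All 4 peaks of its name lay upstream of its annotated TSS, which the peak distances place at position 33656089 of chromosome 15 (rn6, minus strand). Whether this is the start used in the heart was not tested. The promoter-TSS peak was centred 768 bp upstream (33656746 to 33656968) and had 4.11-fold enrichment. The intergenic peaks had 4.61-fold at 3.36 kb upstream (33659173 to 33659731), 4.96-fold at 4.70 kb upstream (33660673 to 33660895) and 5.38-fold at 9.33 kb upstream (33664961 to 33665886). Fold enrichment thus increased from peak to peak with distance from this annotated TSS, as did −log10 q (4.05, 4.33, 5.07 and 7.12). The most distant peak was also the widest, at 926 bp, and 86.9% of the list's peaks had lower fold enrichment, against 49.4% for the promoter-TSS peak. Together the 4 peaks spanned 9.14 kb. The next peak beyond them, named Dhrs4, was 479.1 kb away.

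Myh6, the α-myosin heavy chain, lies between Pabpn1 and Myh7 in the gene order of GRCr8, with Slc22a17, Efs, Il25 and Cmtm5 on its Pabpn1 side. From the Pabpn1 peak to 20 kb upstream of the Myh7 TSS the list held 7 peaks, the 4 of Myh7 and 3 with other names. These 3 were weak. A peak of 3.66-fold (33631123 to 33631322, intergenic) and a peak of 3.70-fold (33633552 to 33633757, TTS) were named for the unnamed protein-coding model AC130940.1, and a peak of 3.38-fold (33636022 to 33636221, intron) for the microRNA gene Mir208b. The annotation's class entries tie 2 of the 3 to the Myh7 transcript. The Mir208b peak is in its intron 35 of 37. The TTS peak is classed at its end, and whether that peak lies before or past the end is not given. Only the first of the 3, centred 24.9 kb downstream of the Myh7 TSS, was intergenic, and it lay past the transcript on the Myh6 side. It was centred 1194 bp upstream of the start of AC130940.1, a plus-strand model that runs opposite to Myh7.

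No peak of any name stood in the 74.995 kb between that peak and the Pabpn1 peak (33555616 to 33556127, 4.37-fold). The gap is longer than 83.4% of the gaps between neighbouring peaks of the list, whose median was 4.66 kb. Inside Myh7, the 20.5 kb between the Mir208b peak and the promoter-TSS peak also held none. By the annotation, then, 6 peaks were classed on the Myh7 transcript or lay upstream of it, and 1 was intergenic past its end. None carried the name of Myh6. The Myh6 start was not placed in rn6. By the spacing of the GRCr8 windows given above, the peak past the Myh7 end, 24.9 kb from the Myh7 TSS, may lie close to it. The absence of the name Myh6 thus does not show that no peak lay near the Myh6 start. Myh6 and Myh7 are closely similar in sequence, and how reads that map to both were treated is not given in the sources used here.

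**Figure D3:**
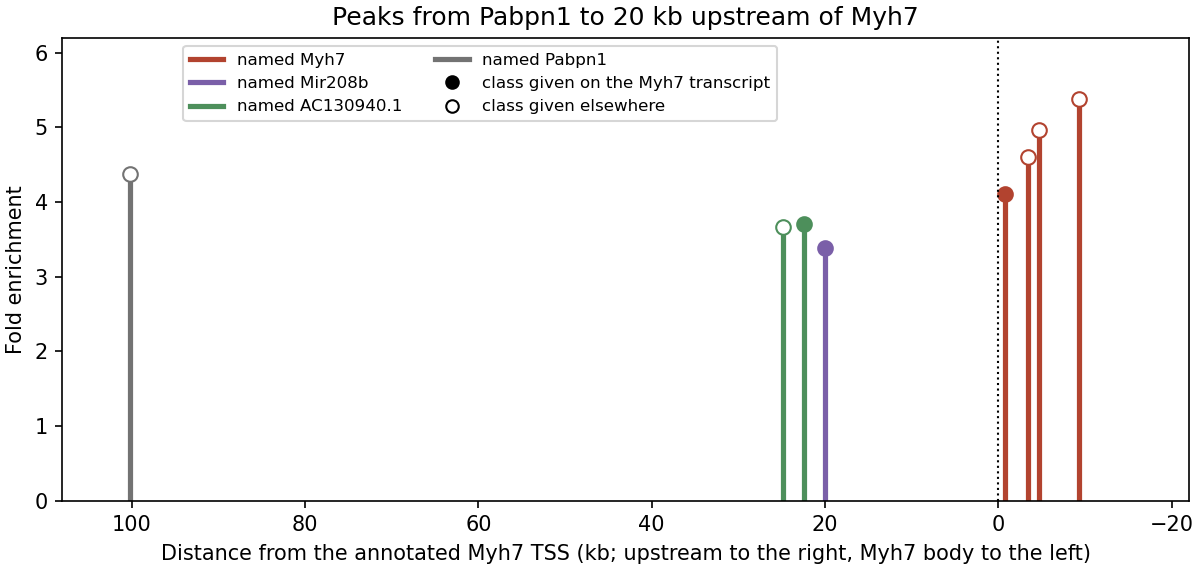
Fold enrichment of the 7 peaks from Pabpn1 to 20 kb upstream of Myh7, with the Pabpn1 peak at the left end, by distance in kb from the annotated Myh7 TSS (dotted line; upstream to the right). Colour gives the name in the annotation, and filled points have their class on the Myh7 transcript. The 4 Myh7 peaks are higher than the 3 others, and 74.995 kb without a peak separate those from Pabpn1.

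The myosin heavy chain genes of the rat heart each carry a microRNA in an intron, miR-208a in Myh6 and miR-208b in Myh7. The mature sequences (RefSeq, GRCr8) are shown because the single microRNA-named peak of the interval belongs to one of the pair, with the seed, bases 2 to 8, in capitals.
rno-miR-208a-3p: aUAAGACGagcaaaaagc
rno-miR-208b-3p: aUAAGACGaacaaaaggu
Both share the seed. The Mir208b peak was centred 3.50 kb downstream of the start of Mir208b, and no peak was named for Mir208a.

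Both ventricular light chain genes had a promoter-TSS peak. Myl2, the regulatory light chain, had 3.74-fold at 452 bp upstream (chromosome 12, 39958572 to 39958811). Its intergenic peak, 7.93 kb upstream (39965961 to 39966384), was stronger, at 4.79-fold. A promoter-TSS peak weaker than a peak further from the annotated TSS was also found at Myh7 and Myl3. At Tnnt2 the promoter-TSS peak was likewise not the strongest, but the strongest lay closer to the TSS. Myl3, the essential light chain, had 4 peaks on chromosome 8 around a TSS at 119030875 on the plus strand. From upstream to downstream these were an intergenic peak of 4.36-fold (119025863 to 119026481), the promoter-TSS peak of 4.74-fold at 251 bp upstream (119030512 to 119030737), a peak of 3.82-fold in intron 1 (119031218 to 119031418) and the strongest, 5.14-fold, also in intron 1, 2.29 kb downstream (119033063 to 119033274). The promoter peak of Myl3 was the strongest of the 4 filament promoter-TSS peaks. The atrial counterparts are not among the filament genes here. Myl4, the atrial essential light chain, had a single intergenic peak of 3.83-fold 11.4 kb from its TSS, and Myl7, the atrial regulatory light chain, had none.

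Mybpc3, which encodes cardiac myosin-binding protein C, had 3 peaks on chromosome 3, none of them upstream. They were in intron 1 at 320 bp (3.86-fold, 79940771 to 79940991), in exon 2 at 1209 bp (4.08-fold, 79941664 to 79941876) and in exon 30 of 33, 17.0 kb into the gene (3.86-fold, 79957433 to 79957632). All 3 lay below the list's median fold and were 200 to 221 bp wide. These are the 2 exon peaks of the filament genes.

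Ttn, the gene of the giant protein titin, had no peak of its name. In the gene order of GRCr8 it lies between Plekha3 and Ccdc141. In the peak list the nearest named neighbours with a peak were Osbpl6 on one side, 5 genes away, and Ccdc141 on the other, with 679.1 kb between their nearest peaks. That stretch held 4 peaks, all under names that do not identify a known gene. Peaks of 5.04-fold (chromosome 3, 63838084 to 63838667) and 3.14-fold (63854775 to 63855128) were intergenic, 2.36 and 18.9 kb upstream of the unnamed protein-coding model AABR07052585.1. The other 2, of 4.35-fold (63933121 to 63933320) and 4.55-fold (63934138 to 63935178), were named for the microRNA model AABR07052587.4 and lay in intron 7 of 23 of the transcript whose start carries the name Ccdc141. Whether AABR07052585.1 is a part of Ttn cannot be told from the files, so the absence of the name Ttn does not show that the gene had no peak.

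Tnnt2, cardiac troponin T, had 4 peaks on chromosome 13 around a plus-strand TSS at 52662996. The strongest had 5.05-fold enrichment, was 912 bp wide and spanned the TSS into intron 1 (52662870 to 52663781). It stood between a weak promoter-TSS peak of 3.41-fold at 801 bp upstream (52662046 to 52662344) and a peak of 3.55-fold further into intron 1 (52664388 to 52664825). The fourth, at the end of the transcript, had 3.79-fold (52681674 to 52682016). After Tnnt2 the next peak of another name was 903.9 kb away, the longest gap beside any filament gene. On the other side, 55.6 kb separated it from the Phlda3 peak.

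Tnni3, cardiac troponin I, had 1 peak of 4.94-fold and 850 bp (chromosome 1, 72882879 to 72883728), 497 bp downstream of its TSS. Its class, TTS, was given on another transcript, ENSRNOT00000077719, to which the annotation gives no name, so the peak lies both at the start of Tnni3 and at the end of an overlapping or adjoining model. The neighbour Tnnt1, slow skeletal troponin T, had no peak of its name. Tpm1, the gene of α-tropomyosin, had the weakest filament peak, 3.18-fold in intron 2 of 8, 1501 bp downstream of its nearest TSS (chromosome 8, 72839815 to 72840176), and 10.7% of all peaks were lower. Tnnc1, troponin C of cardiac and slow muscle, had no peak of its name. It lies between Nisch and Sema3g in GRCr8, and the 23.8 kb from the Nisch promoter-TSS peak (5.35-fold, chromosome 16, 7290638 to 7291280) to the first Sema3g peak (3.94-fold, 7315096 to 7315489) held no peak of any name. The Nisch peak was centred 398 bp upstream of the Nisch TSS. The Tnnc1 start was not placed in rn6, so the absence of its name does not show that no peak lay near it.

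Related lists were set beside the filament genes. Of 20 genes that bind, build or regulate cardiac filaments or are other cardiac isoforms, 18 had a peak of any class (90%, 68.3 to 98.8%), against the 26.5% of protein-coding genes. A peak within 1000 bp of the TSS stood at 6 of 20 genes (11.9 to 54.3%, against 16.7%). A promoter-TSS peak stood at 4 of 20 (5.73 to 43.7%, against 9.68%). Both intervals hold the share over all genes, so only the count of any peak sets this list apart from it. Of the partners' 63 peaks, 7 (11.1%) lay within 1000 bp, against 19.4% of all peaks. The strongest were those of Tpm2, a tropomyosin, at 6.58-fold 1.02 kb upstream of its TSS, Myom2, an M-band protein, at 5.93-fold in intron 1, Mylk3, the cardiac myosin light chain kinase, at 5.93-fold in intron 1, Lmod2, a thin filament length regulator, at 5.93-fold in intron 1, and Nebl, a nebulin relative, at 5.73-fold in intron 2. Others with a peak included Actc1, Fhod3, Mypn, Myh7b, Myl4, Myom1, Obsl1, Smyd1, Tmod1, Trim55, Trim63 and Unc45b, and those without were Myl7 and Mybphl. Cardiac actin itself, Actc1, had 4 peaks of up to 5.25-fold, in exon 2.

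Of 20 skeletal isoforms of the same proteins, 3 had any peak (15%, 3.21 to 37.9%), against 26.5% of protein-coding genes, and 0 had one within 1000 bp of the TSS (0 to 16.8%), against 16.7%. Both intervals hold the share over all genes, so these counts do not set the list apart from it. The 3 were the myosin light chain kinase gene Mylk2 (5.38-fold, 6.17 kb upstream), the leiomodin Lmod3 (4.45-fold, 42.0 kb upstream) and Tnni2, fast troponin I (3.48-fold, 1.95 kb downstream). No peak carried the names of Acta1, Myh1, Myh2, Myh3, Myh4, Myh8, Myl1, Mylpf, Mybpc1, Mybpc2, Myom3, Neb, Tmod4, Tnni1, Tnnt1, Tnnt3 or Tnnc2. Among the troponins, by name, the cardiac genes Tnnt2 and Tnni3 had a peak and Tnnc1 had none. Of the skeletal troponin genes, Tnni2 had an intergenic peak and Tnnt1, Tnnt3, Tnni1 and Tnnc2 had none.

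At the filament genes any peak stood at 7 of 10, and at non-muscle and smooth muscle isoforms at 14 of 20 (70%, 45.7 to 88.1%), against 26.5% of protein-coding genes. These isoforms had a peak within 1000 bp at 12 of 20 (against 16.7%) and a promoter-TSS peak at 7 of 20 (against 9.68%). A strongest peak of at least 6-fold was found at 0 of the 7 filament genes with a peak and at 5 of these 14, against 15.5% of all protein-coding genes with a peak. The 5 were Actb (9.37-fold) and Actg1 (7.11-fold), the cytoplasmic actins, Tpm4, a cytoskeletal tropomyosin (8.64-fold), Myl6, a non-muscle and smooth muscle light chain (7.64-fold), and Tmod3, a tropomodulin (7.32-fold). Acta2, Cald1, Lmod1, Myh9, Myh10, Myl9, Myl12a, Myl12b and Tpm3 also had peaks, and Actg2, Cnn1, Myh11, Myh14, Myl6b and Mylk had none.

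**Figure D4:**
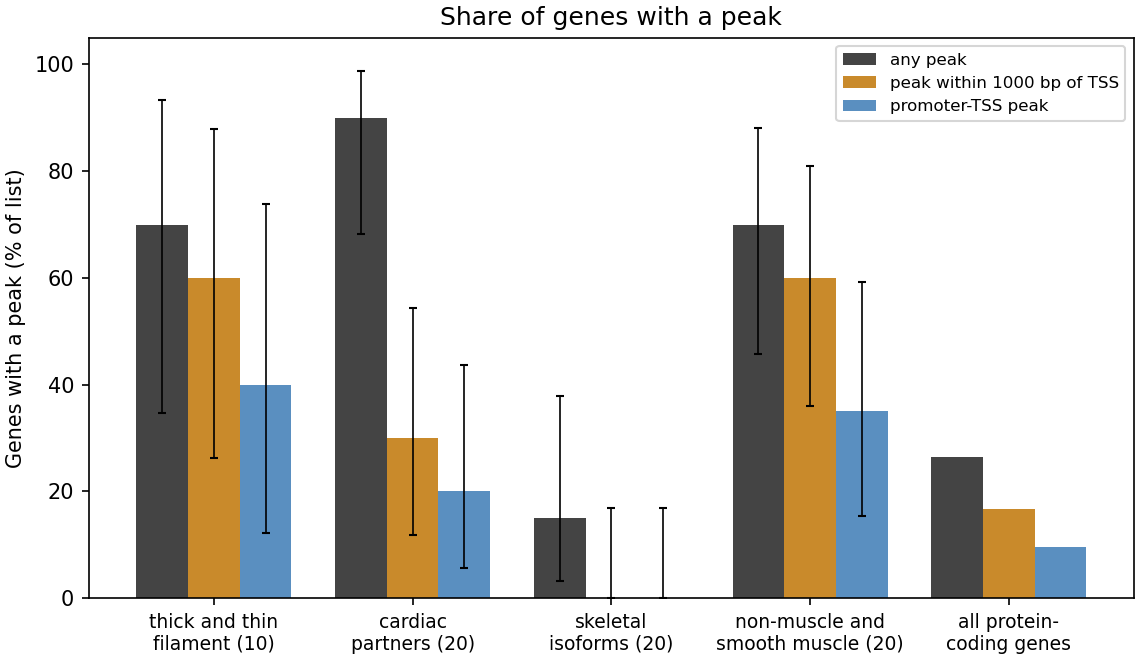
Percentage of genes with any peak, with a peak centred within 1000 bp of a TSS and with a promoter-TSS peak, for the 10 filament genes, 3 related lists of 20 genes and all 23154 protein-coding genes. Error bars are 95% exact binomial intervals for counting error. Skeletal isoforms have the lowest bars (15% with any peak), and filament genes stand at 70%.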

How the data were processed

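Values were available for 1 ChIP library of myocardium after aortic constriction. The submitters' processing notes name rat build rn6, the peak caller MACS2, the annotation tool HOMER, the aligner Bowtie2 and the utilities SAMtools, deepTools, Trim Galore and FastQC. Versions, order and the background used in the call are not given in the sources used here. Fold enrichment is the deposited ratio of a peak's summit to local background, and q is deposited as −log10. The deposited score, a rounded-down multiple of −log10 q, was not used further. The annotation's header names a threshold of q 0.05, which every peak met (largest q 0.0493). Peak names carry 1 sample name, so whether samples were pooled before calling is not stated.

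Peaks and annotation were joined by peak name (Python 3.11.15, pandas 2.3.3), and coordinates are 1-based rn6 positions. The strand and TSS of a transcript were worked out from the annotated distances of at least 2 of its peaks. Names were matched to current symbols of the GRCr8 gene table, which holds all 10 filament genes and 59 of 60 entries of the related lists (Mylpf is there as an older symbol). No coordinates were taken from that table. Shares have 95% exact (Clopper-Pearson) intervals, which cover counting error only. The steps were tested on simulated peak lists. With 1 library there is no test and no p-value.

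All 10 filament genes are described with every peak. Of each related list, the genes with and without a peak are named, and the 5 strongest, or all where fewer had a peak, are given with values; 1 gene of the cardiac partners is counted but not reported here by name. The genes and lists were chosen with earlier results of these data known. Alternatives were a −log10 q of at least 5, a fold enrichment of at least 4, joining of peaks less than 1000 bp apart, a window of 3000 bp around the TSS, a bound of 50 kb upstream of Myh7, older symbols and, added after the data were seen, peaks classed on a filament gene's transcript.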

Additional observations from a re-analysis of the deposited data

How the results depend on the processing

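With −log10 q of at least 5, the filament genes with any peak fell to 3 (Myh7, Myl2 and Tnnt2), those with a peak within 1000 bp of the TSS to 1 and those with a promoter-TSS peak to 0. The share of all protein-coding genes with any peak also fell, to 14.1%, against 26.5% without this limit. Filament peaks then numbered 4, with a median of 5.004-fold, peaks from Pabpn1 to 20 kb upstream of Myh7 numbered 2, cardiac partners with a peak 11 and skeletal isoforms with a peak 1. With fold enrichment of at least 4, promoter-TSS peaks stood at 2 filament genes, filament peaks numbered 11, with a median of 4.79-fold, and 4 peaks stood in the Pabpn1 to Myh7 stretch. Joining peaks less than 1000 bp apart moved the median to 4.55-fold, and adding the peaks classed on the Myh7 transcript moved it to 4.08-fold. Joined peaks kept the highest fold among them, and the limits on q and fold removed weaker peaks. No median of all peaks is given under these settings, so the higher medians are not a trait particular to filament peaks. Counts under the remaining alternatives stayed within 1.5 times, among them 7 filament genes with older symbols, 7 with a 3000 bp window and 7 peaks with a bound of 50 kb. The limits are 1 library without replicates, unknown depth and names given by nearness. No replicate could be left out. No paired analysis was possible because the ChIP and input libraries share 1 replicate number only and the input has no values here.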
